A study of Rattus norvegicus and Mus musculus with 18 samples.

Results

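The genes described here are 48 ligands, receptors, antagonists, Smads and target genes of BMP, TGF-beta and activin signalling that were chosen by symbol as a pathway list. The choice was made with earlier results of these data known. All 48 were found among the 49548 genes of the mouse table, and 42 passed the filter of at least 1 TPM in at least 3 libraries, among 15982 genes tested. They were compared between wound epidermis and wound dermis of adult mice, with 3 whole-tissue libraries each, taken 1 day after the scab had come off. That stage is given in the study's description as the time when hair follicles regenerate in mouse wounds. The sources used here give no strain, sex, age in weeks or wound size and do not say whether the libraries came from separate animals, so the p-values below measure the spread between these libraries only. Levels are in TPM, a gene's length-corrected share of all transcripts of its library scaled to a fixed total, so levels of different genes can be compared. TPM values do not tell how many reads a library had. The series also holds rat libraries, which were not analysed here because their identifiers are not paired with gene names in the files and tables used.

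As background, the ligands of this family are dimers that bring together type I and type II receptor kinases on the cell surface. BMP receptors mainly phosphorylate Smad1, Smad5 and Smad9, and TGF-beta and activin receptors mainly phosphorylate Smad2 and Smad3; both sets join Smad4 and enter the nucleus. In skin, TGF-beta drives matrix deposition by fibroblasts and slows keratinocyte division, activin is a known factor of wound repair, and BMP signalling with its antagonists times the formation and cycling of hair follicles.

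The compartments were checked against marker genes. The 8 differentiating keratinocyte markers summed to 58598, 84374 and 35816 TPM in wound epidermis replicates 1 to 3, against 538, 13496 and 307 TPM in wound dermis replicates 1 to 3. Wound dermis replicate 2 thus held 22.6% of the epidermis mean of these markers, while the other dermis libraries held 0.903% and 0.516%. The 7 basal keratinocyte markers summed to 9795, 6756 and 17720 TPM in epidermis and 1904, 3406 and 282 TPM in dermis, which is 16.7%, 29.8% and 2.47% of the epidermis mean. The 8 fibroblast markers summed to 62.7, 23.3 and 124 TPM in epidermis, which is 0.0386 to 0.205% of the dermis mean, and to 68648, 44147 and 68354 TPM in dermis. Endothelial markers in epidermis stood at 1.33 to 2.42% of the dermis mean, smooth muscle and pericyte markers at 0.0813 to 0.505%, macrophage markers at 6.36 to 8.5% and T cell markers at 23.4 to 65.1%. All 8 differentiating keratinocyte and 5 of 7 basal keratinocyte markers were called higher in epidermis, and all 8 fibroblast, 8 endothelial, 7 smooth muscle and 7 macrophage markers lower, as were 2 of 5 T cell markers. None of the markers of these 7 lists was at 0 in all libraries. Of the sparser lists, Schwann cell markers summed to 4.76 to 5.82 TPM in epidermis and 10.7 to 89.7 TPM in dermis, skeletal muscle markers to 31.9 to 45.0 in epidermis and 15.8 to 44.5 in dermis, hair follicle markers to 4.51 to 4.93 in epidermis and 3.32 to 17.2 in dermis, melanocyte markers to 1.6 to 5.23 in epidermis and 1.28 to 4.72 in dermis and adipocyte markers to 0.33 to 0.71 in epidermis and 3.73 to 4.85 in dermis. The skeletal muscle sum in epidermis was almost all Mylpf, at 36.3, 31.7 and 44.8 TPM. Tnnt3 went the other way, at 0 TPM in epidermis and 7.56, 5.48 and 12.4 TPM in dermis. Acta1, Ckm and Myh4 did not exceed 0.3 TPM in any epidermis library. The adipocyte sum in dermis was mostly Pparg, at 4.33, 3.38 and 4.3 TPM, with Adipoq, Cidec and Lep at 0 TPM there. Neither sum thus speaks for its list as a whole. The macrophage sum in epidermis was mostly Cd68, at 44.4, 68.5 and 52.9 TPM. C1qa, C1qb, C1qc, Adgre1 and Mrc1 each averaged 1.9 TPM or less there. Of the fibroblast markers Fbln1 differed least, at 20.9, 13.5 and 19.2 TPM in epidermis and 44.3, 44.8 and 61.6 TPM in dermis. The dermis libraries held transcripts of several cell types. In whole tissue fewer cells of a type and less RNA per cell cannot be told apart.

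**Figure D1:**
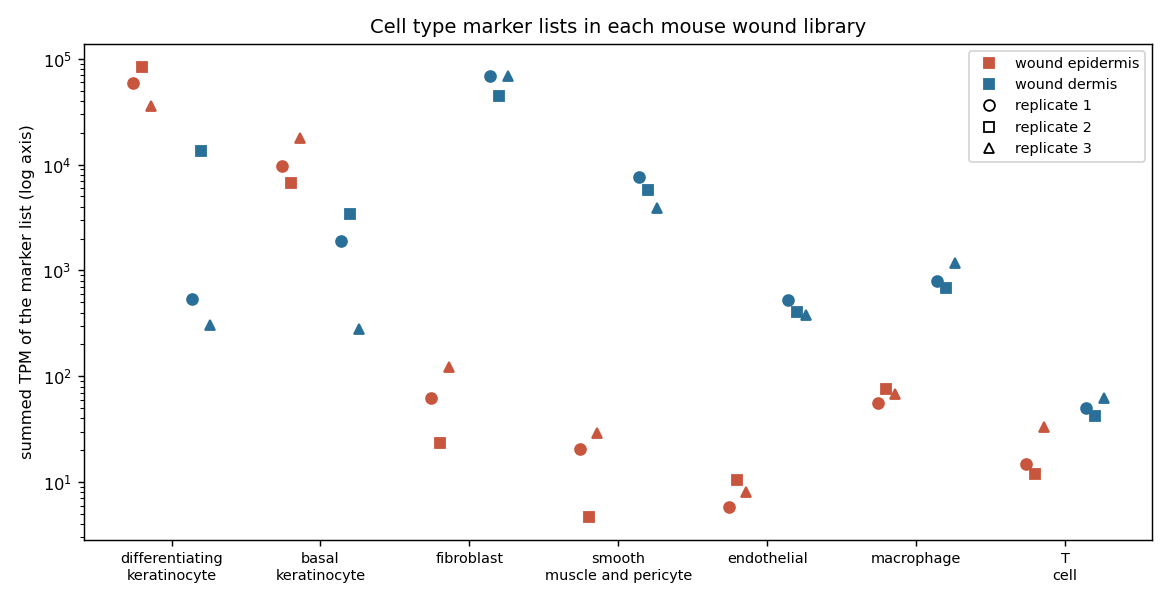
Summed TPM of 7 cell type marker lists (log axis) in each mouse library, with wound epidermis left of wound dermis and a symbol for each replicate. Wound dermis replicate 2 holds 13496 TPM of differentiating keratinocyte markers, between the epidermis libraries and the other dermis libraries, and fibroblast markers stay within the range of 23.3 to 124 TPM in epidermis.

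Most of the pathway was lower in wound epidermis than in wound dermis, and a small set went the other way. Of the 42 tested members 30 were lower and 4 higher in epidermis at an adjusted p under 0.05 (limma), and 8 did not pass. Bmp5, Gdf15, Inhba, Inhbb, Ltbp2, Bmpr1b, Acvrl1, Chrd, Grem1 and Msx1 stayed below 1 TPM in every epidermis library. They passed the filter through dermis only, so their direction was all but fixed on entry, and all were called lower. Genes at 1 TPM or more numbered 13117 to 14012 in the epidermis libraries and 15958 to 16257 in the dermis libraries. Over all genes tested 39.3% were called lower and 17.0% higher, 56.3% in all. Among the members the lower calls stood at 71.4% and the higher calls at 9.52%. The median log2 fold change of the tested members was -1.43, or -1.42 without Gdf15, which is listed at 0 in epidermis; over all genes it was -0.42. The 4 higher members were Bmp7, Acvr1b, Acvr2a and Id4, and 29 of the 30 lower members had a log2 fold change of -1 or less. In 31 members every epidermis library lay below every dermis library and in 6 every one lay above, against 45.3% and 20.8% of all genes, 66.0% in all; 5 members overlapped. Without wound dermis replicate 2 the counts were 30 lower and 4 higher, with Bmp3 no longer called and Tgfbi called lower.

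TPM shares are relative, and the abundant keratin and collagen genes differ between these tissues. Scaling each library by its median ratio moved the median of all genes to -0.03 and quantile normalization moved it to 0.08. With the first scaling 28 members were lower and 7 higher, and with the other 21 were lower and 7 higher. Among all genes tested 4850 were lower and 4342 higher with the first scaling, and 4191 were lower and 4694 higher with the other. Of the called members 20.0% and 25.0% were thus higher, against 47.2% and 52.8% of all called genes. The added higher members were Bmpr1a, Id1 and Smad7 in both. The 4 higher members of the first fit passed in both scalings as well.

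**Figure D2:**
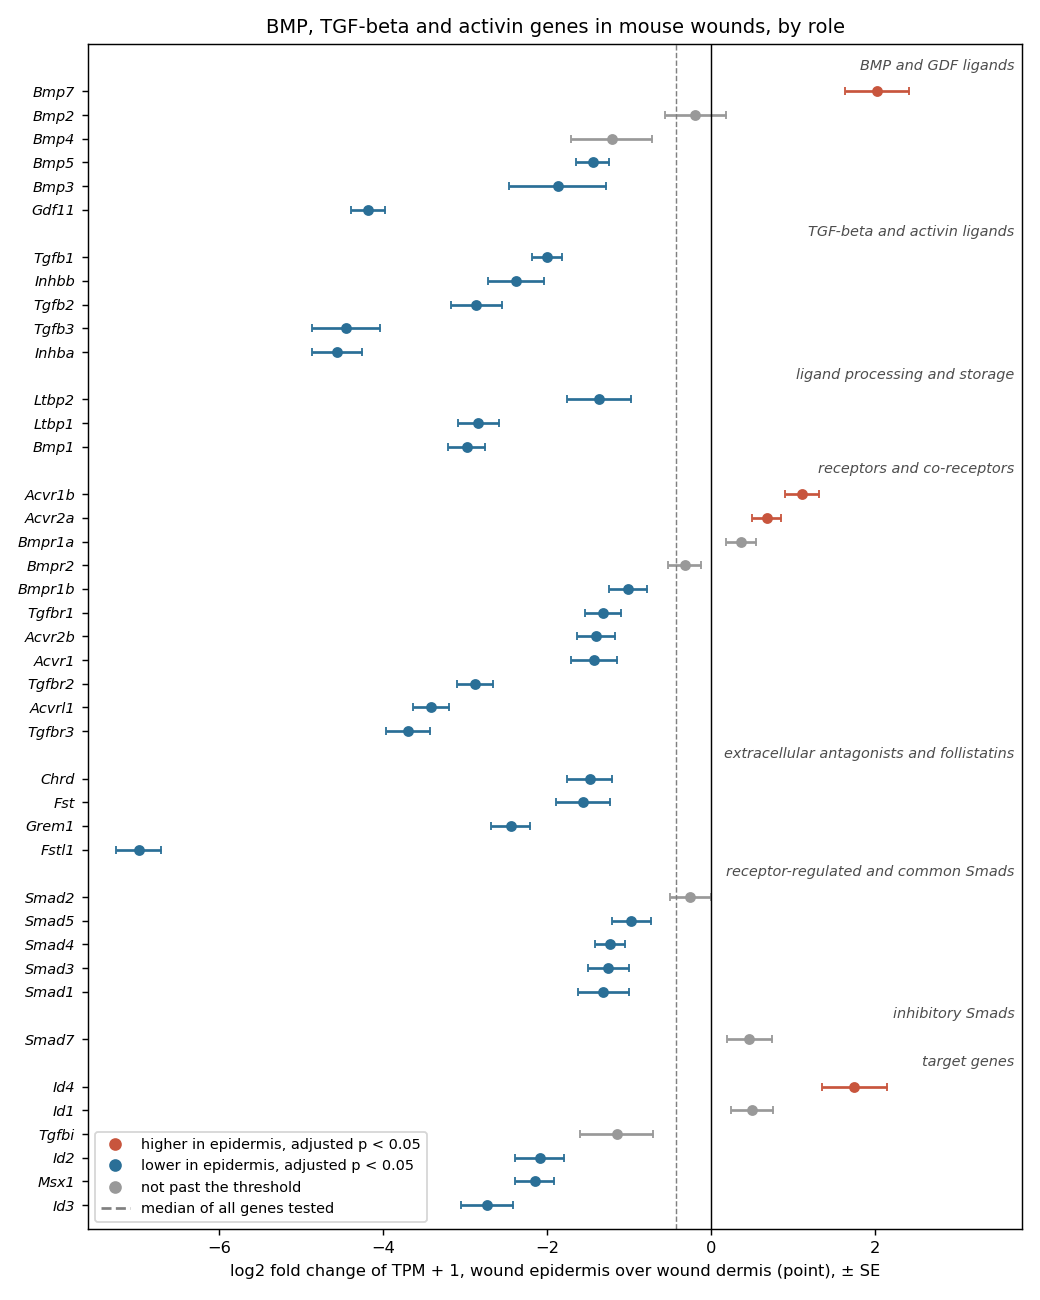
Log2 fold change of TPM + 1 in wound epidermis over wound dermis (x axis, points with SE, 3 libraries per group) for 41 tested members, grouped by role; Gdf15 is left out because it is listed at 0 in epidermis. Points right of the solid line are higher in epidermis, red and blue points pass an adjusted p of 0.05, and the dashed line is the median of all genes tested at -0.42.

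Among the BMP and GDF ligands 1 rose, 4 fell and 2 did not pass, while Bmp6 and Gdf10 were below the filter. Over all genes tested 17.0% were higher and 39.3% lower. Of the ligands that fell, Bmp5 and Gdf15 passed the filter through dermis only. Bmp7, a BMP made by many epithelia, was the ligand that rose. It stood at 7.99, 8.88 and 11.3 TPM in wound epidermis, against 1.3, 3.44 and 0.56 TPM in wound dermis (log2 fold change 2.03 ± 0.39 (SE), adjusted p = 0.0038). Every epidermis library was above every dermis library, and the highest dermis value was in replicate 2 and the lowest in replicate 3, the dermis libraries with the highest and the lowest keratinocyte marker sums. That replicate held 36.6% of the epidermis mean of Bmp7, while replicates 1 and 3 held 13.8% and 5.97%; what part the keratinocyte transcripts had in these dermis values was not tested. Without wound dermis replicate 2 Bmp7 rose by 2.44 on the log2 scale. It lies on chromosome 2 from 172868012 to 172940321 (mm10, protein-coding).

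Gdf11, a ligand close to myostatin that signals through activin receptors, was the most abundant of these ligands in dermis. It stood at 2.27, 1.6 and 2.17 TPM in wound epidermis, against 53.8, 46.8 and 60.4 TPM in wound dermis (log2 fold change -4.18 ± 0.21 (SE), adjusted p = 1.3e-05). The epidermis kept 3.75% of the dermis mean, and the spread within each group was small beside that gap. Gdf11 lies on chromosome 10 from 128882295 to 128891718 (mm10, protein-coding). Bmp3, which opposes other BMPs at the type II receptor, stood at 4.82, 0.62 and 4.06 TPM in wound epidermis, against 12.4, 22.3 and 6.51 TPM in wound dermis (log2 fold change -1.87 ± 0.59 (SE), adjusted p = 0.03). Its groups did not overlap, but both spread widely, with the lowest epidermis value in replicate 2 and the highest dermis value in replicate 2. Bmp3 was not called once wound epidermis replicate 2 (-1.29, adjusted p = 0.068), wound dermis replicate 1 (-1.87, adjusted p = 0.08) or wound dermis replicate 2 (-1.47, adjusted p = 0.083) was left out, nor with no filter (adjusted p = 0.069), with median-of-ratios scaling (-1.52, adjusted p = 0.057) or quantile normalization (-1.25, adjusted p = 0.085).

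Bmp4 and Bmp2, the BMPs best known from hair follicle cycling, did not pass. Bmp4 stood at 4.75, 0.98 and 3.68 TPM in wound epidermis, against 14.0, 5.02 and 6.3 TPM in wound dermis (log2 fold change -1.21 ± 0.49 (SE), adjusted p = 0.073), with all epidermis libraries below all dermis libraries by a narrow margin. It stood at -0.54, adjusted p = 0.37 under quantile normalization and at -0.74, adjusted p = 0.19 without wound epidermis replicate 2. Bmp2 stood at 2.77, 4.32 and 2.17 TPM in wound epidermis, against 6.46, 2.09 and 3.13 TPM in wound dermis (log2 fold change -0.19 ± 0.37 (SE), adjusted p = 0.67), and its groups overlapped. Its sign turned to 0.17 under median-of-ratios scaling, 0.56 under quantile normalization and 0.16 without wound dermis replicate 1, and leaving out other libraries gave values between -0.48 and -0.03. Bmp5 was near 0 in epidermis, at 0.03, 0 and 0 TPM, against 2.5, 1.26 and 1.6 TPM in dermis (adjusted p = 0.001). Gdf15, a stress-induced member of the family, is listed at 0 in all 3 epidermis libraries and stood at 3.48, 2.11 and 2.57 TPM in dermis (adjusted p = 0.00022). For genes this low the log2 fold change depends on the pseudocount: Bmp5 stood at -1.44 with a pseudocount of 1, at -4.06 with 0.1 and at -0.81 under quantile normalization. In the annotation 46.7% of the Bmp5 exon bases are shared with Gm26903 on the opposite strand, and SMART-seq2 does not mark strand; Gm26903 itself averaged 0.02 TPM in epidermis and 0.1 TPM in dermis. Bmp6 stayed at or below 1.02 TPM in every library and Gdf10 at or below 0.11 TPM.

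The make-up of the BMP and GDF ligand pool differed between compartments. Shares within a library do not depend on a factor that scales the whole library. Bmp7 made up 35.3%, 54.1% and 48.1% of the summed ligand TPM in epidermis replicates 1 to 3 and 1.38%, 4.12% and 0.681% in dermis. Gdf11 made up 9.25% to 10.0% in epidermis and 56.0% to 73.5% in dermis. Bmp2 made up 9.25% to 26.3% in epidermis and 2.5% to 6.84% in dermis, without overlap, although its level did not pass the test. Bmp4 shares overlapped, at 5.98% to 21.0% in epidermis and 6.01% to 14.8% in dermis. The summed level of the 9 ligands was 20.8 ± 3.86 TPM in wound epidermis and 86.7 ± 6.75 in wound dermis (mean TPM with SD, n = 3 each).

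All 5 TGF-beta and activin ligand genes were lower in epidermis, against 39.3% of all genes tested. Inhba and Inhbb passed the filter through dermis only, so their direction was all but fixed on entry. The sum of the 5 genes was 4.84 ± 1.05 TPM in wound epidermis and 105 ± 33.1 in wound dermis (mean TPM with SD, n = 3 each). Inhba, which encodes the subunit of activin A, stood at 0.2, 0 and 0.35 TPM in wound epidermis, against 37.4, 17.2 and 29.4 TPM in wound dermis (log2 fold change -4.56 ± 0.31 (SE), adjusted p = 3.7e-05). The transcript was close to 0 in all epidermis libraries and at least 17.2 TPM in each dermis library. Inhbb, the subunit of activin B, stood at 0.28, 0.34 and 0.76 TPM in wound epidermis, against 11.3, 4.25 and 5.58 TPM in wound dermis (log2 fold change -2.38 ± 0.34 (SE), adjusted p = 0.0011), and at -3.64 with a pseudocount of 0.1. Inhba lies on chromosome 13 from 16011851 to 16031621 (mm10, protein-coding).

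Each of the 3 TGF-beta isoforms fell, and the differences between their fold changes were not tested. Tgfb3 stood at 1.27, 0.08 and 1.47 TPM in wound epidermis, against 41.3, 24.4 and 57.3 TPM in wound dermis (log2 fold change -4.45 ± 0.42 (SE), adjusted p = 0.00017). Tgfb2 stood at 2.05, 1.61 and 1.72 TPM in wound epidermis, against 30.3, 13.0 and 18.0 TPM in wound dermis (log2 fold change -2.86 ± 0.31 (SE), adjusted p = 0.00033). Tgfb1 stood at 1.23, 1.68 and 1.48 TPM in wound epidermis, against 8.84, 8.59 and 9.02 TPM in wound dermis (log2 fold change -2.00 ± 0.18 (SE), adjusted p = 0.00015). No isoform overlapped between the groups, and Tgfb1 was the most even of them in dermis; under quantile normalization it stood at -1.28, adjusted p = 0.0019. In dermis Tgfb3 was the leading isoform in every library, with 51.4% to 67.9% of the summed TGF-beta TPM. In epidermis Tgfb3 made up 27.9%, 2.37% and 31.5% in replicates 1 to 3, and Tgfb1 27.0% to 49.9%, against 10.7% to 18.7% for Tgfb1 in dermis. The Tgfb3 share was lowest in epidermis replicate 2, the library with the lowest fibroblast marker sum; what part residual dermal RNA had in the epidermis values was not tested. Tgfb3 lies on chromosome 12 from 86056745 to 86079041 (mm10, protein-coding).

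Genes that store or process the ligands were lower in epidermis as well, though Ltbp2 passed the filter through dermis only. Ltbp1, which binds latent TGF-beta and tethers it to the matrix, stood at 10.9, 11.7 and 17.9 TPM in wound epidermis, against 107, 84.2 and 114 TPM in wound dermis (log2 fold change -2.84 ± 0.25 (SE), adjusted p = 0.00011). Bmp1, a metalloprotease that cleaves procollagens and chordin and is no ligand despite its name, stood at 12.4, 9.35 and 9.06 TPM in wound epidermis, against 96.8, 68.3 and 101 TPM in wound dermis (log2 fold change -2.98 ± 0.23 (SE), adjusted p = 7.0e-05). Both were present in every epidermis library, at 13.3% and 11.6% of the dermis mean. Ltbp2, a relative of Ltbp1 on elastic fibres, was low, at 0.2, 0.05 and 0.08 TPM in wound epidermis, against 1.01, 1.08 and 4.48 TPM in wound dermis (log2 fold change -1.36 ± 0.39 (SE), adjusted p = 0.02). Its dermis value rested on replicate 3: without that library it stood at -0.88. It was not called once epidermis replicate 2 (adjusted p = 0.064) or 3 (adjusted p = 0.053) was left out, nor under quantile normalization (-0.50, adjusted p = 0.35), and stood at -3.18 with a pseudocount of 0.1.

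**Figure D3:**
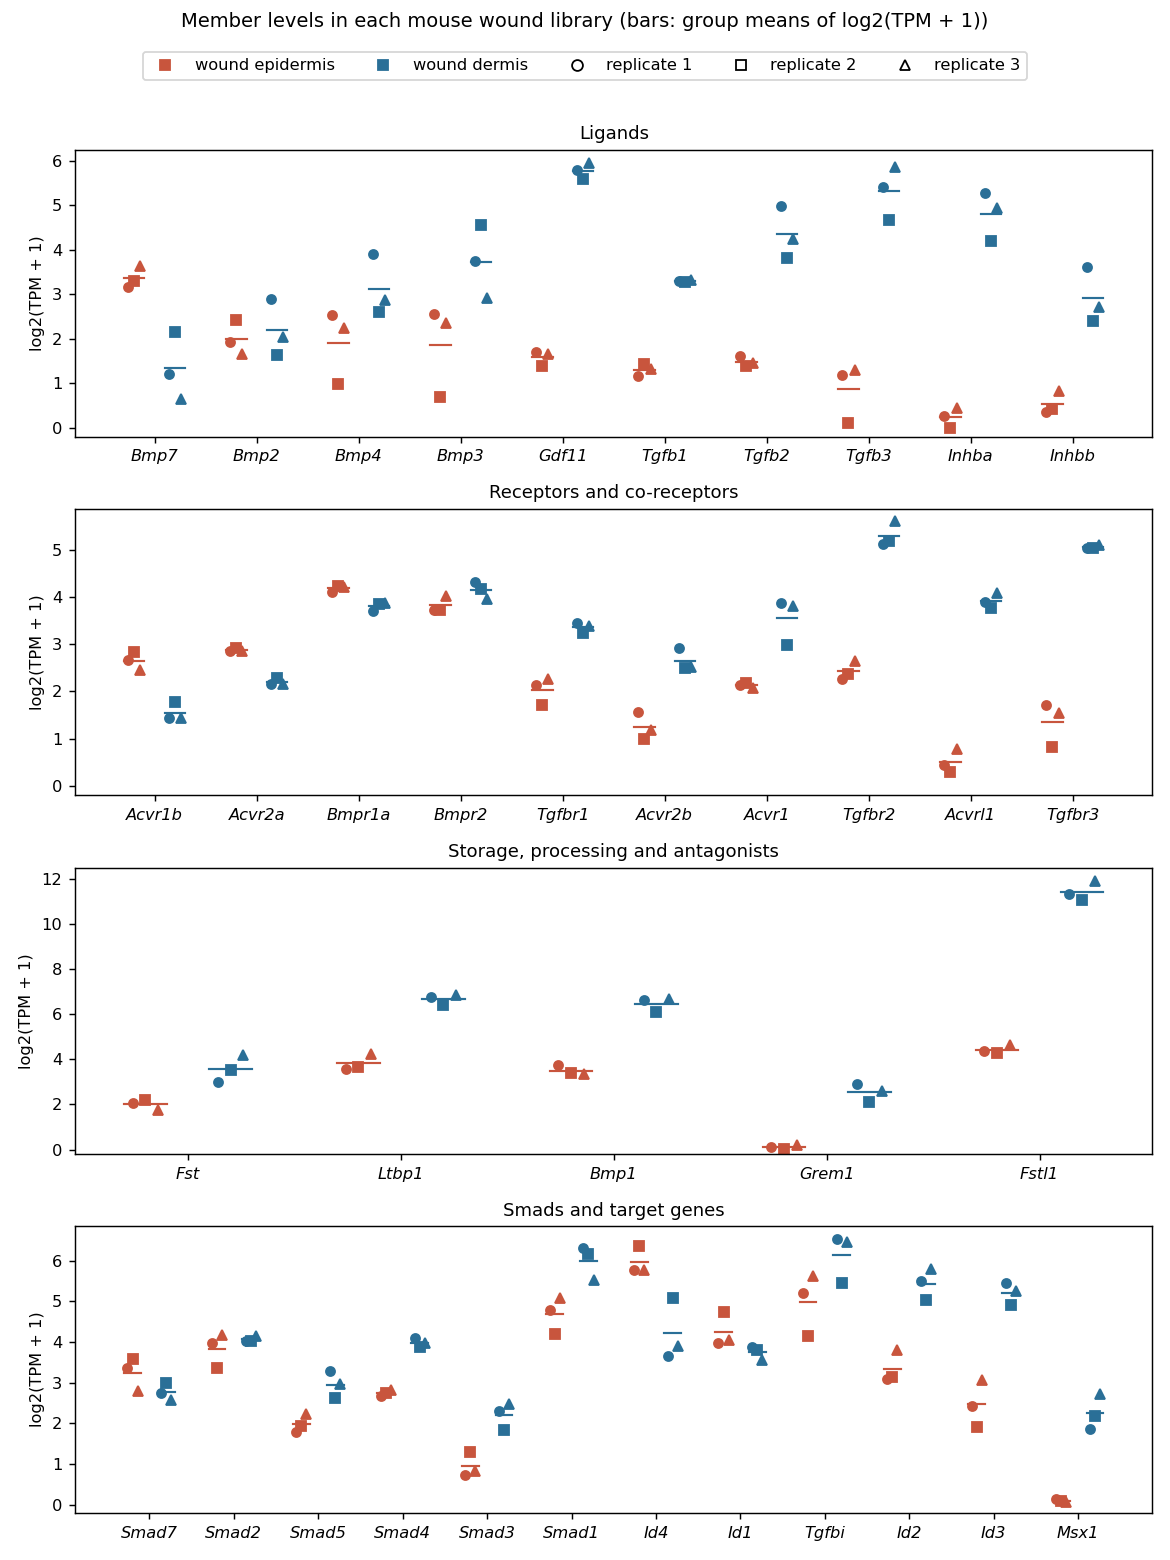
Levels as log2(TPM + 1) of tested members, by role, in each library. Bmp5, Gdf15, Ltbp2, Bmpr1b and Chrd, which stayed below 5 TPM in every library, are left out. Wound epidermis is drawn left of wound dermis, symbols are replicates and bars are group means. Bmp7, Acvr1b, Acvr2a and Id4 sit higher in epidermis in every library, while Fstl1, Inhba, Tgfb3 and Gdf11 have group means more than 4 apart on this scale in the other direction.

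The receptors moved in both directions. Of 11 receptors and co-receptors 2 were higher, 7 were lower and 2 did not pass, against 17.0% higher and 39.3% lower over all genes tested. The higher calls were thus near the share over all genes. Among the lower genes Acvrl1 and Bmpr1b passed the filter through dermis only. Both higher genes are activin receptors. Acvr1b, the activin type I receptor, stood at 5.34, 6.15 and 4.51 TPM in wound epidermis, against 1.69, 2.44 and 1.71 TPM in wound dermis (log2 fold change 1.11 ± 0.21 (SE), adjusted p = 0.0038). Acvr2a, an activin type II receptor that also binds BMPs, stood at 6.29, 6.6 and 6.29 TPM in wound epidermis, against 3.47, 3.89 and 3.45 TPM in wound dermis (log2 fold change 0.68 ± 0.18 (SE), adjusted p = 0.015). The replicates lay close together and the groups did not overlap. Acvr2a was not called once epidermis replicate 1 was left out (0.69, adjusted p = 0.053), while it rose by 1.08 under median-of-ratios scaling and by 1.37 under quantile normalization, where Acvr1b rose by 1.82. In the annotation 7.84% of the Acvr2a exon bases are shared with Orc4 on the opposite strand, and reads there cannot be told apart without strand. Orc4 averaged 34.6 TPM in epidermis and 53.7 TPM in dermis. What part reads from Orc4 had in the Acvr2a values was not tested.

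The other type II activin receptor fell. Acvr2b stood at 1.94, 0.99 and 1.26 TPM in wound epidermis, against 6.57, 4.68 and 4.71 TPM in wound dermis (log2 fold change -1.40 ± 0.23 (SE), adjusted p = 0.0022), and under quantile normalization it missed the threshold (-0.65, adjusted p = 0.055). In epidermis Acvr2a was thus above Acvr2b in all 3 libraries, and in dermis Acvr2b was above Acvr2a in all 3 libraries.

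All 3 TGF-beta receptor genes were lower in epidermis. Tgfbr2, which binds the ligand first, stood at 3.81, 4.17 and 5.24 TPM in wound epidermis, against 33.8, 35.3 and 47.7 TPM in wound dermis (log2 fold change -2.88 ± 0.22 (SE), adjusted p = 6.6e-05). Tgfbr1, the kinase it recruits, stood at 3.41, 2.29 and 3.77 TPM in wound epidermis, against 9.99, 8.4 and 9.45 TPM in wound dermis (log2 fold change -1.32 ± 0.22 (SE), adjusted p = 0.0022), and stood at -0.66, adjusted p = 0.025 under quantile normalization. Tgfbr3, the co-receptor betaglycan, stood at 2.28, 0.78 and 1.9 TPM in wound epidermis, against 31.7, 31.8 and 33.3 TPM in wound dermis (log2 fold change -3.69 ± 0.27 (SE), adjusted p = 4.9e-05). None of the 3 genes overlapped between the groups, and Tgfbr3 was nearly the same in the 3 dermis libraries. The difference between the fold changes of Tgfbr2 and Tgfbr1 was not tested.

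The BMP receptor pair Bmpr1a and Bmpr2 did not pass. Bmpr1a, the type I receptor needed for hair follicle differentiation in mice, stood at 16.2, 17.9 and 17.6 TPM in wound epidermis, against 12.0, 13.5 and 13.7 TPM in wound dermis (log2 fold change 0.37 ± 0.18 (SE), adjusted p = 0.12). All epidermis libraries were above all dermis libraries, and Bmpr1a was called higher with median-of-ratios scaling (0.81, adjusted p = 0.0079) and with quantile normalization (0.82, adjusted p = 0.0074). Bmpr2, its type II partner, stood at 12.3, 12.3 and 15.3 TPM in wound epidermis, against 18.8, 17.1 and 14.6 TPM in wound dermis (log2 fold change -0.32 ± 0.20 (SE), adjusted p = 0.21). Its groups overlapped and its sign turned under these scalings, to 0.12 and 0.12.

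The remaining type I receptors were lower in epidermis. Acvrl1, a BMP receptor known from endothelial cells, stood at 0.36, 0.22 and 0.73 TPM in wound epidermis, against 14.0, 12.7 and 16.0 TPM in wound dermis (log2 fold change -3.41 ± 0.22 (SE), adjusted p = 2.9e-05). The endothelial co-receptor Eng, no member of the list, stood at 0.2, 0.46 and 0.78 TPM in wound epidermis, against 57.4, 42.7 and 47.0 TPM in wound dermis (log2 fold change -5.09 ± 0.23 (SE), adjusted p = 1.2e-05), and the summed endothelial markers at 5.78 to 10.5 TPM in epidermis and 378 to 522 TPM in dermis; their part in the Acvrl1 result was not tested. Acvr1, a widely expressed BMP type I receptor, stood at 3.43, 3.54 and 3.18 TPM in wound epidermis, against 13.6, 6.91 and 13.0 TPM in wound dermis (log2 fold change -1.42 ± 0.28 (SE), adjusted p = 0.0043), and under quantile normalization it missed the threshold (-0.77, adjusted p = 0.079). Its dermis value was lowest in replicate 2, though still above every epidermis value. Bmpr1b was low, at 0.22, 0.14 and 0.65 TPM in wound epidermis, against 2.31, 1.51 and 1.25 TPM in wound dermis (log2 fold change -1.01 ± 0.23 (SE), adjusted p = 0.0081), and stood at -2.17 with a pseudocount of 0.1 and at -0.17, adjusted p = 0.54 under quantile normalization.

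Within the type I receptors, Bmpr1a made up 55.9% to 59.1% of the summed TPM in epidermis and 22.5% to 29.7% in dermis. Acvr1b made up 14.8% to 20.4% in epidermis and 3.1% to 5.37% in dermis, and Acvrl1 made up 0.728% to 2.4% in epidermis and 26.1% to 29.0% in dermis. Within the type II receptors, Bmpr2 led in every epidermis library with 50.6% to 54.5%, against 20.7% to 30.1% in dermis, where Tgfbr2 led with 53.9% to 67.7%, against 15.6% to 18.7% in epidermis. Acvr2a made up 22.4% to 27.5% in epidermis and 4.9% to 6.38% in dermis. None of these shares overlapped between the groups.

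**Figure D4:**
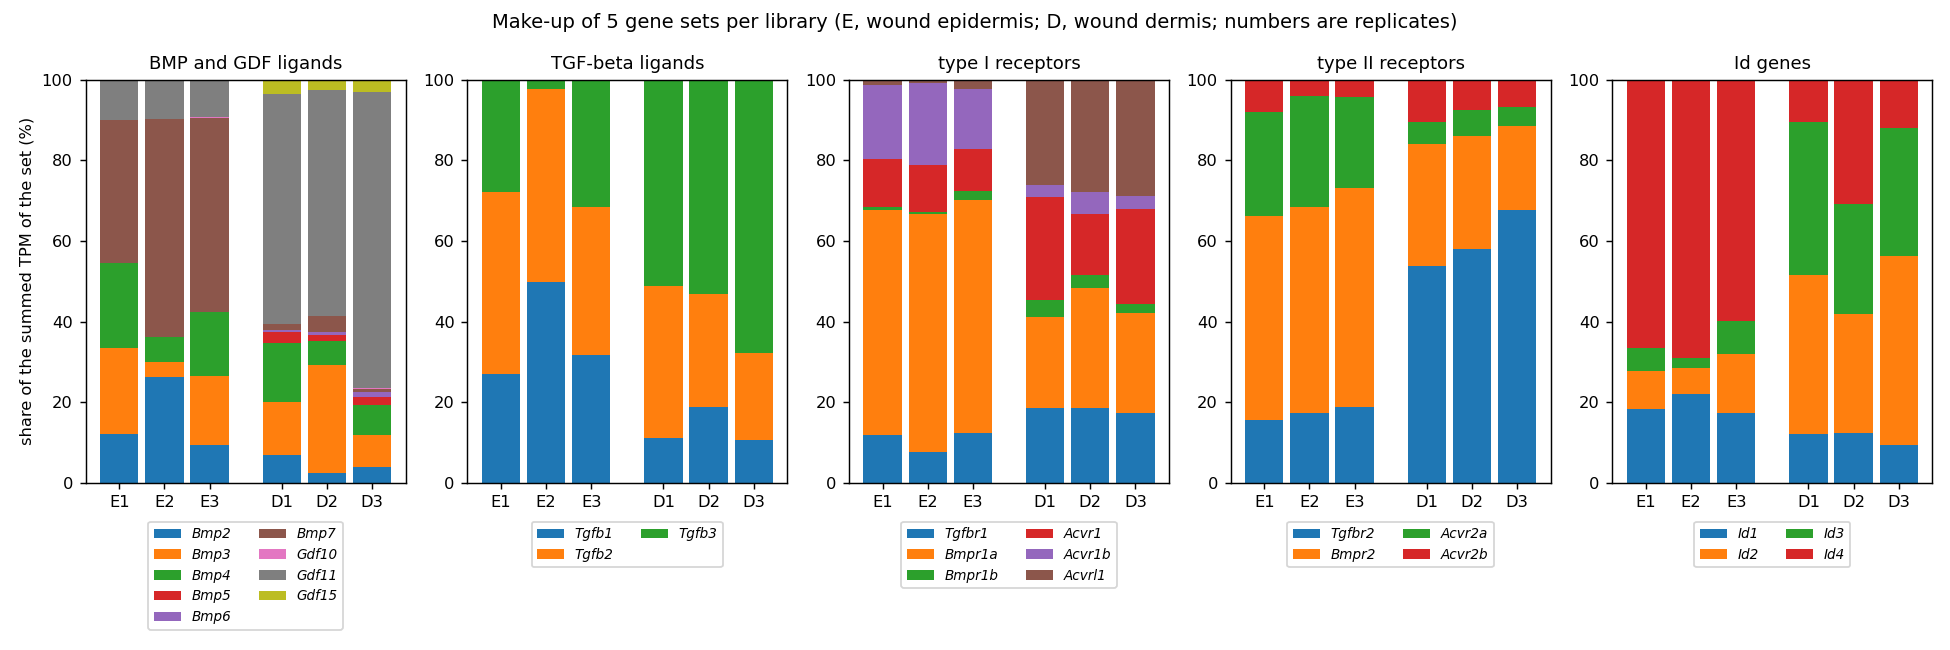
Share of each gene in the summed TPM of its set (y axis, percent) in every library, with wound epidermis (E) left of wound dermis (D). Bmp7 leads the BMP and GDF ligands in epidermis and Gdf11 in dermis, Bmpr1a is the largest type I receptor in epidermis, and Id4 makes up 59.9% to 69.1% of the Id genes in epidermis, against 10.4% to 30.9% in dermis.

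All 4 tested antagonists and follistatins were lower in epidermis, against 39.3% of all genes tested, and Nog was below the filter. Grem1 and Chrd passed the filter through dermis only, so their direction was all but fixed on entry. Fstl1, a secreted glycoprotein related to follistatin and made by mesenchymal cells, was the most abundant member in dermis. It stood at 19.9, 18.4 and 23.8 TPM in wound epidermis, against 2544, 2102 and 3814 TPM in wound dermis (log2 fold change -6.98 ± 0.27 (SE), adjusted p = 1.1e-05), so the epidermis held 0.734% of the dermis mean. Fstl1 lies on chromosome 16 from 37776873 to 37836514 (mm10, protein-coding). Fst, which binds and neutralizes activins, stood at 3.14, 3.56 and 2.41 TPM in wound epidermis, against 6.87, 10.7 and 17.1 TPM in wound dermis (log2 fold change -1.56 ± 0.33 (SE), adjusted p = 0.0057). Its groups did not overlap, but the dermis libraries spread widely, and Fst missed the threshold under quantile normalization (-0.90, adjusted p = 0.067). In epidermis Fst exceeded both activin subunit genes in every library, whereas in dermis Inhba exceeded Fst in every library.

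Grem1, a BMP antagonist, stood at 0.07, 0.03 and 0.14 TPM in wound epidermis, against 6.6, 3.37 and 5.03 TPM in wound dermis (log2 fold change -2.44 ± 0.24 (SE), adjusted p = 0.00019), and at -4.82 with a pseudocount of 0.1. Chrd, another BMP antagonist, stood at 0, 0.02 and 0 TPM in wound epidermis, against 1.53, 1.09 and 3.18 TPM in wound dermis (log2 fold change -1.48 ± 0.27 (SE), adjusted p = 0.0031); it stood at -4.12 with a pseudocount of 0.1 and missed the threshold under quantile normalization (-0.80, adjusted p = 0.076). Both were close to 0 in epidermis in every library. Chrd shares 3.82% of its exon bases with Thpo on the opposite strand, which averaged 0 TPM in epidermis and 2.46 TPM in dermis. Nog, whose protein blocks BMP2 and BMP4, did not exceed 0.37 TPM in any library.

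Among the Smads 4 of 5 tested receptor-regulated and common genes were lower in epidermis, against 39.3% of all genes tested. Smad1, a BMP-regulated Smad, stood at 26.4, 17.3 and 32.7 TPM in wound epidermis, against 77.9, 70.7 and 44.8 TPM in wound dermis (log2 fold change -1.31 ± 0.31 (SE), adjusted p = 0.0098), and stood at -0.85, adjusted p = 0.028 under median-of-ratios scaling. Smad4, the shared partner, stood at 5.39, 5.71 and 6.03 TPM in wound epidermis, against 16.0, 13.7 and 14.7 TPM in wound dermis (log2 fold change -1.23 ± 0.18 (SE), adjusted p = 0.0013), and stood at -0.81 under median-of-ratios scaling and -0.68 under quantile normalization. Neither gene overlapped between the groups, and Smad4 varied little within them.

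Smad2, which acts for TGF-beta and activin, stood at 14.6, 9.18 and 16.9 TPM in wound epidermis, against 15.4, 15.4 and 16.7 TPM in wound dermis (log2 fold change -0.25 ± 0.25 (SE), adjusted p = 0.43). Epidermis replicate 3 lay above all dermis libraries and replicates 1 and 2 lay below them, and the sign turned to 0.20 under median-of-ratios scaling and 0.21 under quantile normalization. Smad2 stood at -0.01 without epidermis replicate 2 and at -0.41 without epidermis replicate 3. Smad3 was less abundant than Smad2 in every library, at 0.65, 1.45 and 0.78 TPM in wound epidermis, against 3.91, 2.57 and 4.56 TPM in wound dermis (log2 fold change -1.25 ± 0.25 (SE), adjusted p = 0.0049), and missed the threshold under quantile normalization (-0.46, adjusted p = 0.23). Smad5 stood at 2.47, 2.85 and 3.66 TPM in wound epidermis, against 8.71, 5.17 and 6.76 TPM in wound dermis (log2 fold change -0.97 ± 0.24 (SE), adjusted p = 0.012). It was not called once epidermis replicate 1 was left out (-0.87, adjusted p = 0.053), nor with median-of-ratios scaling (-0.58, adjusted p = 0.075) or quantile normalization (-0.27, adjusted p = 0.41). Smad9 did not exceed 0.09 TPM in any library, so Smad1 made up 85.7% to 91.4% of the BMP-regulated Smad TPM in epidermis and 86.8% to 93.1% in dermis.

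The inhibitory Smads block the receptors and are themselves induced by the pathway. Smad7 stood at 9.26, 11.0 and 5.92 TPM in wound epidermis, against 5.73, 7.01 and 5.0 TPM in wound dermis (log2 fold change 0.47 ± 0.27 (SE), adjusted p = 0.17), with overlapping groups. It passed as higher in epidermis under median-of-ratios scaling (0.88, adjusted p = 0.048), under quantile normalization (1.09, adjusted p = 0.018) and without wound epidermis replicate 3 (0.69, adjusted p = 0.049), and stood at 0.30, adjusted p = 0.39 without epidermis replicate 2. Smad6 was below the filter, with 0.55, 1.69 and 0.6 TPM in epidermis and 0.77, 0.45 and 1.03 TPM in dermis.

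The Id genes, classic BMP targets whose proteins hold back helix-loop-helix transcription factors, moved in different directions. Id4 was higher in epidermis, Id2 and Id3 were lower, and Id1 did not pass. Id4 stood at 53.1, 81.0 and 53.3 TPM in wound epidermis, against 11.6, 32.8 and 13.8 TPM in wound dermis (log2 fold change 1.75 ± 0.40 (SE), adjusted p = 0.0081). Every epidermis library was above every dermis library, and dermis replicate 2, where the keratinocyte marker sums were highest, held 52.6% of the epidermis mean, while replicates 1 and 3 held 18.6% and 22.2%. With dermis replicate 2 left out Id4 rose by 2.18 on the log2 scale. It lies on chromosome 13 from 48261228 to 48266026 (mm10, protein-coding).

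Id3 stood at 4.37, 2.78 and 7.3 TPM in wound epidermis, against 42.5, 29.1 and 36.9 TPM in wound dermis (log2 fold change -2.73 ± 0.32 (SE), adjusted p = 0.00046). Id2 stood at 7.52, 7.77 and 13.1 TPM in wound epidermis, against 44.0, 31.4 and 54.2 TPM in wound dermis (log2 fold change -2.09 ± 0.30 (SE), adjusted p = 0.0011). Both genes were lower in every epidermis library than in any dermis library. Id1 stood at 14.7, 25.6 and 15.4 TPM in wound epidermis, against 13.6, 13.0 and 10.7 TPM in wound dermis (log2 fold change 0.50 ± 0.26 (SE), adjusted p = 0.14). It was higher in each epidermis library than in any dermis library by a margin that was small for replicates 1 and 3, and it was called higher with median-of-ratios scaling (0.95, adjusted p = 0.037) and with quantile normalization (0.96, adjusted p = 0.03). Without epidermis replicate 2, its highest library, Id1 stood at 0.26, adjusted p = 0.32. The summed Id level was close in both compartments, with group means of 95.3 TPM in epidermis and 111 TPM in dermis, while its make-up differed. Id4 made up 66.7%, 69.1% and 59.9% of it in epidermis and 10.4%, 30.9% and 12.0% in dermis, while Id2 made up 6.63% to 14.7% in epidermis and 29.5% to 46.9% in dermis, and Id3 2.37% to 8.19% in epidermis and 27.4% to 38.0% in dermis.

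Of the remaining target genes Msx1 was lower, Tgfbi did not pass and Msx2 was not tested. Tgfbi, a matrix protein induced by TGF-beta, stood at 35.6, 16.7 and 48.1 TPM in wound epidermis, against 90.6, 42.7 and 87.0 TPM in wound dermis (log2 fold change -1.15 ± 0.45 (SE), adjusted p = 0.062). Its groups overlapped through dermis replicate 2, and it passed as lower without that library (-1.50, adjusted p = 0.027) or without wound epidermis replicate 3 (-1.47, adjusted p = 0.036), and without the 50 most abundant genes (-1.18, adjusted p = 0.0499). It was smaller without epidermis replicate 2 (-0.74, adjusted p = 0.15) and with median-of-ratios scaling (-0.69, adjusted p = 0.17), and it stood at -0.97, adjusted p = 0.18 without dermis replicate 1 and at -1.0, adjusted p = 0.17 without dermis replicate 3. Msx1, a homeobox target of BMP, stood at 0.1, 0.07 and 0.04 TPM in wound epidermis, against 2.64, 3.5 and 5.59 TPM in wound dermis (log2 fold change -2.15 ± 0.24 (SE), adjusted p = 0.00039); it stood at -4.51 with a pseudocount of 0.1 and at -1.38 under quantile normalization. Msx2 was below the filter, with 0.4, 0.72 and 0.98 TPM in epidermis and 0.45, 0.73 and 0.12 TPM in dermis.

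The lower members differed in how far they fell. Of the 30 lower members 16 kept at least 10% of their dermis mean in epidermis, 14 lay below 10%, and 5 of these lay below 1%. The 5 were Fstl1, Inhba, Bmp5, Chrd and Gdf15. Smad5 kept the most, 43.5%, followed by Smad1 with 39.5%, Smad4 with 38.6% and Tgfbr1 with 34.0%. Within dermis, replicate 2 held the lowest value of 22 of the 30 lower members and the highest value of all 4 higher members; it was also the library with the lowest fibroblast sum and the highest keratinocyte sums. The matching shares over all genes were not computed, so these counts are not read as particular to the members. The part of this mixture in single results was not tested. The counts without dermis replicate 2 are given above.

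Further genes of the pathway were read from the same fit. Of 84 such genes 60 were tested, and 34 were lower and 10 higher in epidermis, with a median log2 fold change of -1.03, against 39.3% lower, 17.0% higher and a median of -0.42 over all genes. These lists were chosen with earlier results of these data known, so they are no independent check of the member result. Some of the lower genes, such as Eng and Fbn1, passed the filter through dermis only. Without wound epidermis replicate 1, wound dermis replicate 1 or wound dermis replicate 3 the higher genes numbered 6 in each case. Of 17 further ligands only Inha and Lefty1 passed the filter, and neither was called. Of 14 tested storage and activation genes 10 were lower, among them the fibrillin Fbn1 (-5.54, adjusted p = 1.3e-05, and -8.39 with a pseudocount of 0.1) and Nrros, which anchors latent TGF-beta on macrophages (-4.72, adjusted p = 3.4e-05). The 3 higher ones were the proprotein convertases Pcsk6 and Furin and the integrin chain Itgb6. Pcsk6 stood at 10.4, 14.8 and 7.88 TPM in wound epidermis, against 2.36, 3.97 and 3.13 TPM in wound dermis (log2 fold change 1.51 ± 0.28 (SE), adjusted p = 0.0034). Itgb6, part of an epithelial integrin that activates TGF-beta, stood at 6.19, 7.82 and 8.02 TPM in wound epidermis, against 1.97, 3.91 and 0.27 TPM in wound dermis (log2 fold change 1.65 ± 0.47 (SE), adjusted p = 0.02) and was named after its values were seen. It was not called once epidermis replicate 2 (adjusted p = 0.059) or 3 (adjusted p = 0.053) was left out, nor with no filter (adjusted p = 0.0503). Furin stood at 0.59 (adjusted p = 0.042) and was not called once any 1 of the 6 libraries was left out, with an adjusted p between 0.051 and 0.12, nor with no filter (adjusted p = 0.053), and stood at 1.06, adjusted p = 0.0061 under median-of-ratios scaling.

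Over all genes tested 39.3% were lower and 17.0% higher. Of 7 tested antagonists outside the member list 4 were lower and 0 higher, with Dcn at -9.70 and Nbl1 at -4.94. Dcn is also in the fibroblast marker list. Of 5 tested co-receptors and receptors 3 were lower and 0 higher. Of 14 intracellular regulators 7 were lower, with the isomerase Fkbp1a at -2.86 and Pmepa1, a TGF-beta target that dampens the pathway, at -2.27. The 2 higher regulators were Zfyve9, which brings Smad2 to the receptor, at 1.15 (adjusted p = 0.0054), and the Smad repressor Skil at 0.59 (adjusted p = 0.028). Skil was not called once epidermis replicate 1 (adjusted p = 0.089) or dermis replicate 1 (adjusted p = 0.063) or 3 (adjusted p = 0.092) was left out, and stood at 1.06, adjusted p = 0.0042 under median-of-ratios scaling. Zfyve9 stood at 1.78 under quantile normalization.

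Of 11 other TGF-beta target genes 8 were lower in epidermis and 2 higher, against 39.3% lower and 17.0% higher over all genes tested. The lower ones were led by Col1a1 at -10.65 and Postn at -7.29; Col1a1 stood at -9.82 without wound epidermis replicate 2 and at -11.37 without replicate 3, and it is also in the fibroblast marker list. Acta2 (-5.05) and Tagln (-4.57), also lower, are in the smooth muscle and pericyte marker list as well. The higher targets were the cell cycle inhibitors Cdkn1a and Cdkn2b, through which TGF-beta halts keratinocytes. Cdkn1a stood at 2325, 2081 and 1360 TPM in wound epidermis, against 252, 469 and 150.1 TPM in wound dermis (log2 fold change 2.84 ± 0.44 (SE), adjusted p = 0.0016). Cdkn2b stood at 38.5, 20.8 and 43.1 TPM in wound epidermis, against 9.99, 18.3 and 13.6 TPM in wound dermis (log2 fold change 1.21 ± 0.34 (SE), adjusted p = 0.019), and was not called once replicate 1 or 3 of either group was left out, with an adjusted p between 0.054 and 0.068. Of 7 other BMP target genes 3 were higher and 2 lower, against 17.0% higher and 39.3% lower over all genes tested. The 2 lower genes were Hey1 at -2.73 (adjusted p = 2.5e-05) and Runx2 at -2.7 (adjusted p = 5.4e-05). Both stayed below 1 TPM in every epidermis library and passed the filter through dermis only. The third higher gene, the transcription factor Gata3, was named after its values were seen and stood at 2137, 794 and 1400 TPM in wound epidermis, against 68.8, 577 and 49.6 TPM in wound dermis (log2 fold change 3.40 ± 0.90 (SE), adjusted p = 0.015). It was not called once epidermis replicate 1 (adjusted p = 0.0504) or dermis replicate 1 (adjusted p = 0.06) or 3 (adjusted p = 0.051) was left out. The homeobox genes Dlx3 and Dlx5 stood at 4.69 and 3.67 (adjusted p = 0.0043 and 0.0059). Both were highest among the dermis libraries in replicate 2; without it they rose by 5.87 and 4.54, and without wound dermis replicate 3 by 3.97 and 2.81.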

How the data were processed

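SMART-seq2 RNA-seq was run on wound epidermis and wound dermis of mice, with 3 libraries each. The labels' protocols name a pair each of RNA inputs, amplification cycle numbers and read lengths, but not which library had which. The authors deposited TPM per Ensembl gene; Bowtie 1.0.0, RSEM 1.2.31 and the mm10 build are named per the submitters' processing notes, and the sources used here name neither the annotation nor the settings. TPM keeps no depth, so counting error is unknown.

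Of 49548 genes 49289 were paired with a symbol through GENCODE annotation of GRCm38, the assembly of mm10, which also gave coordinates, counted from 1, and exon overlaps. A gene was tested if it reached 1 TPM in 3 or more of the 6 mouse libraries, and the fit was made with limma 3.58.1 (R 4.3.3) on log2(TPM + 1), with a mean-variance trend, no covariate and Benjamini-Hochberg adjustment over all 15982 genes at a threshold of 0.05. A log2 fold change is wound epidermis over wound dermis on that scale and understates the change of low genes. The fit was also run on simulated data in which few genes changed, evenly up and down. The real data differ from that setting, as 56.3% of the genes tested were called.

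Alternatives were pseudocounts of 0.1 and 0.5, no filter or a filter of 5 TPM, median-of-ratios scaling, quantile normalization, leaving out the 50 most abundant genes, a replicate block, no trend, and leaving out each library. Members, role lists, the lists of other pathway genes and the cell type markers were chosen with earlier results of these data known. Values per library and the test were given for members that passed with a log2 fold change of 1 or more in size and a mean of 5 TPM or more in their higher group, and for members that missed the threshold with a mean of 10 TPM or more in either group; others are given more briefly or at lower levels where a role needed them. From each list of other pathway genes up to 2 genes per direction were named. These had the largest changes among called genes with a mean of 10 TPM or more in 1 group. Itgb6, Gata3, Hey1 and Runx2 were added after their values were seen. The planned rat comparison and promoter motif search were not run, since rat identifiers could not be paired with symbols and no mouse promoter sequence was at hand.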

Additional observations from a re-analysis of the deposited data

How the results depend on the processing

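Of 618 member values recomputed under 15 alternatives, 579 kept their direction and their side of the threshold, 20 lost the threshold, 12 gained it and 7 turned sign. All 34 called members kept their sign, and 24 of them passed in every alternative that tested them. The sign turned for Bmp2 under median-of-ratios scaling (0.17), under quantile normalization (0.56) and without wound dermis replicate 1, with a range of -0.48 to 0.16 over the libraries left out, and under these scalings for Bmpr2 (0.12 and 0.12) and Smad2 (0.20 and 0.21). Median-of-ratios scaling and quantile normalization gave 7 and 7 higher members in place of 4, and 4342 and 4694 higher genes in all in place of 2721. These scalings moved the median log2 fold change of all genes from -0.42 to -0.03 and 0.08. Higher calls made up 20.0% and 25.0% of the called members under them, against 11.8% without, and 47.2% and 52.8% of all called genes, against 30.2%. With a filter of 5 TPM 3 members were higher and 20 lower, as only 30 were tested. Leaving out 1 library at a time gave 3 to 5 higher and 28 to 30 lower members, 2124 to 2791 higher and 5291 to 6376 lower genes in all, and 6 to 9 higher and 31 to 34 lower genes among the other pathway genes.

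The sources do not say whether same-numbered epidermis and dermis libraries were paired. Deviations from the group means of same-numbered libraries correlated at -0.135, 0.0859 and 0.189 across genes for numbers 1 to 3. Differently numbered libraries correlated at -0.201 to 0.116. With 3 libraries per group these values cannot tell whether the libraries were paired. With a replicate block 4 members were higher and 31 lower, with 2464 higher and 5940 lower genes in all. Under the block Bmp4 (adjusted p = 0.015) and Tgfbi (adjusted p = 0.0096) passed. Bmp3 (adjusted p = 0.057), Furin (adjusted p = 0.085) and Skil (adjusted p = 0.069) did not. No other member changed its call, nor did any other pathway gene followed through the alternatives. Acta2, Tagln, Hey1, Runx2, Inha and Lefty1 were not followed. Levels near 0 TPM are limited by a depth that the values do not give, and 3 libraries per group limit the precision of every fold change. The causes of the changed calls were not tested.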
